A study of Mus musculus with 6 samples.

Results

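The genes described here are 9 members of the TGF-beta system, of 19739 genes in the deposited table. They are the ligands Tgfb1, Tgfb2 and Tgfb3, the receptors Tgfbr1, Tgfbr2 and Tgfbr3, and 3 genes taken as targets or regulators, Skil, Tgfbi and Ltbp1. They were chosen by gene symbol with the differences between EFNA3-treated and control cells already known, so those differences are given as a description, with no test. All 9 were found in the table and all 9 passed the filter on low values.

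RNA was sequenced from wild-type mouse mammary luminal cells, the inner epithelial layer of the duct, after flow sorting and culture. The EFNA3 group (3 libraries) received EFNA3 protein at 1 µg/ml for 24 hours, and the control group (3 libraries) received 0 µg/ml. EFNA3 is ephrin-A3, a ligand of Eph receptors that is normally tethered to the cell membrane. Both groups had been grown with 5% FBS, EGF, FGF2, heparin and the ROCK inhibitor Y-27632, were then starved of serum for 12 hours, and were treated without serum. The labels give neither the age nor the strain of the mice, and nothing in them says whether the 3 libraries of a group came from separate animals or cultures. The spread between libraries may therefore be technical.

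TGF-beta ligands are secreted in a latent form, in which the propeptide encloses the growth factor and is bound to a latent TGF-beta binding protein in the matrix. Integrins and proteases release the ligand, which then joins the serine/threonine kinase receptors TGFBR2 and TGFBR1. TGFBR1 phosphorylates SMAD2 and SMAD3, which enter the nucleus with SMAD4 and induce target genes, among them inhibitors that feed back on the pathway. In the mammary gland TGF-beta restrains ductal growth, and in epithelial cells it is known for arresting the cell cycle and for promoting mesenchymal traits.

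All values are log2 as deposited, and all 6 libraries had been brought to 1 distribution with a median of 8.10. Their depth is unknown. The luminal keratin Krt8 stood at 13.73 to 13.94 in EFNA3 libraries and at 13.67 to 13.78 in controls, and the luminal progenitor factor Elf5 at 12.50 to 12.68 and 12.56 to 12.59. Of 6 luminal markers 5 had higher means with EFNA3, and Kit was lower by -0.08 (SE 0.07). Krt19 and Epcam were higher without overlap, as were 8.53% of all tested genes. They differed by 0.21 (SE 0.09) and 0.17 (SE 0.09), or by 0.13 and 0.09 without EFNA3 replicate 1. The basal keratin Krt14 was abundant, at 16.36 to 16.44 in EFNA3 libraries and 16.21 to 16.36 in controls. Of the other basal markers, Krt5, Trp63 and the contractile genes Acta2 and Tagln averaged 14.94, 11.74, 7.84 and 4.67 with EFNA3 and 14.915, 11.79, 7.77 and 5.20 in controls, while Myh11 and Cnn1 were below the filter. EFNA3 replicate 1 stood apart by transcript length: across genes, its deviation from the mean of the 6 libraries had a Spearman correlation of -0.51 with the length of the longest annotated transcript, and those of the other libraries lay between 0.02 and 0.35. By transcript length, the median log2 difference between groups ran from 0.17 in the shortest eighth of genes to -0.18 in the longest. The members have long transcripts, with a median of 5756 nt against 3011 nt over all tested genes, so the difference of each member is also given without that library and with length and GC share taken out of every library.

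Of the ligands, Tgfb3 was the main transcript in both groups. Per kilobase of its longest transcript, Tgfb3 stood at 11.31 on the log2 scale, higher than 96.8% of tested genes, and Tgfb1 stood at 9.33, higher than 81.2%. Tgfb2 stood at 6.72, higher than 39.1%. Within a library, the level of Tgfb3 per kilobase exceeded that of Tgfb1 by 1.73, 1.78 and 2.18 in the EFNA3 libraries and by 2.04, 2.08 and 2.04 in the controls. Over the 6 libraries this is a 3.93-fold excess, and Tgfb3 exceeded Tgfb2 by 24.1-fold. Of the summed ligand level per kilobase, Tgfb3 made up 76.2% ± 2.7 in EFNA3 cells and 78.1% ± 0.3 in controls (SD, n = 3 each). Tgfb1 made up 20.6% ± 2.7 and 18.8% ± 0.3, and Tgfb2 3.24% ± 0.24 and 3.16% ± 0.18. The shares of the groups overlapped for Tgfb1 and Tgfb3, since EFNA3 replicate 3 lay on the far side of the controls from the other EFNA3 libraries.

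The receptors Tgfbr1 and Tgfbr2, which form the signalling complex, had the same level per kilobase, at 8.74 each. Within a library the level of Tgfbr2 exceeded that of Tgfbr1 by 0.06, 0.03 and -0.10 in EFNA3 cells and by 0.01, -0.04 and 0.03 in controls. Tgfbr3 encodes betaglycan, a co-receptor without kinase activity that presents ligand, TGF-beta 2 above all, to TGFBR2. It stood lower, at 7.32 per kilobase.

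**Figure D1:**
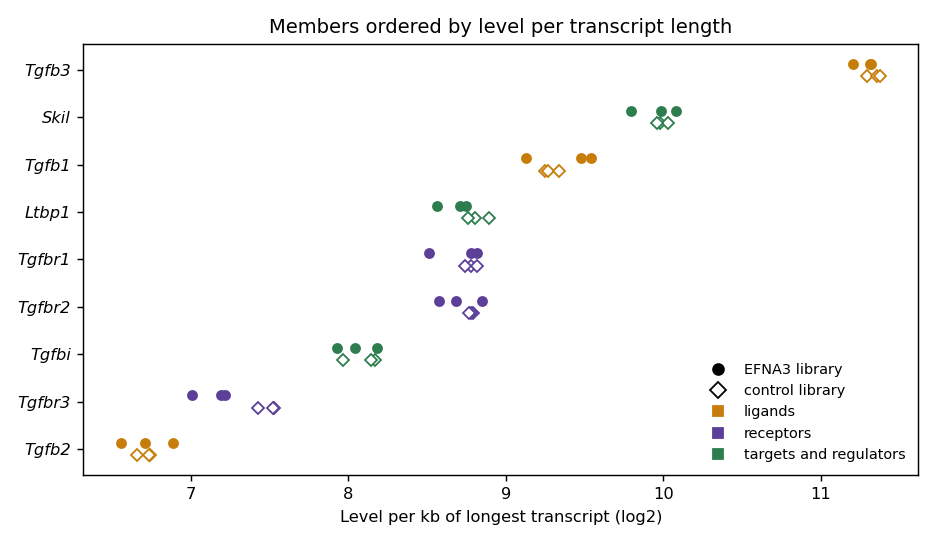
Level per kilobase of longest transcript (log2, horizontal axis) of the 9 members, in order, with filled circles for the 3 EFNA3 libraries and open diamonds for the 3 control libraries, coloured by role. Tgfb3 is highest at 11.31 and Tgfb2 lowest at 6.72; Ltbp1, Tgfbr1 and Tgfbr2 coincide near 8.74.

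In the order of levels per kilobase, Tgfb3 was followed by Skil at 9.97, Tgfb1 at 9.33, Ltbp1 at 8.75, Tgfbr1 and Tgfbr2 at 8.74, Tgfbi at 8.07, Tgfbr3 at 7.32 and Tgfb2 at 6.72. Ltbp1, Tgfbr1 and Tgfbr2 did not differ beyond their spread, with mean differences of 0.01 and 0.00 between neighbours. Each other pair of neighbours kept the same order in 6 of 6 libraries with no overlap of ranges, the narrowest step being 0.59 from Tgfb1 to Ltbp1. These levels rest on the longest annotated transcript, which may not be the form these cells use.

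Setting EFNA3 cells against control cells asks which transcripts differ after a day with the protein. Tgfbr3 had the largest difference of the 9 members. It stood at 9.61, 9.83 and 9.80 in EFNA3 libraries 1, 2 and 3, against 10.14, 10.13 and 10.03 in controls. Every EFNA3 library lay below every control, and the nearest pair was 9.83 and 10.03. The mean was 9.75 ± 0.12 in EFNA3 cells and 10.10 ± 0.06 in controls (SD, n = 3 each), a difference of -0.35 (SE 0.09) or 0.783-fold. Tgfbr3 stayed lower with EFNA3 whichever library was left out, by differences of -0.39 to -0.29. With length and GC share taken out the difference was -0.22 (SE 0.06), and the groups still did not overlap, at 9.86, 9.82 and 9.76 with EFNA3 and 10.05, 10.03 and 10.02 in controls. In a bulk sample, fewer cells that make a transcript and less of it per cell cannot be told apart.

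The ratio of Tgfbr3 to the signalling receptors was lower with EFNA3, which restates the same Tgfbr3 values and is no separate result. Within a library the level of Tgfbr3 per kilobase minus that of Tgfbr1 was -1.51, -1.60 and -1.59 with EFNA3, against -1.25, -1.29 and -1.31 in controls. Minus that of Tgfbr2 it was -1.57, -1.63 and -1.49 with EFNA3, against -1.26, -1.26 and -1.34 in controls. Both ratios separated the groups without overlap, as Tgfbr3 itself did, and their mean differences between groups were -0.28 and -0.28. The share of all gene ratios that do so was not computed. The longest transcript has 6087 nt for Tgfbr3, 5756 nt for Tgfbr1 and 8092 nt for Tgfbr2. Because the ratio is taken within a library, a constant factor between libraries does not change it.

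**Figure D2:**
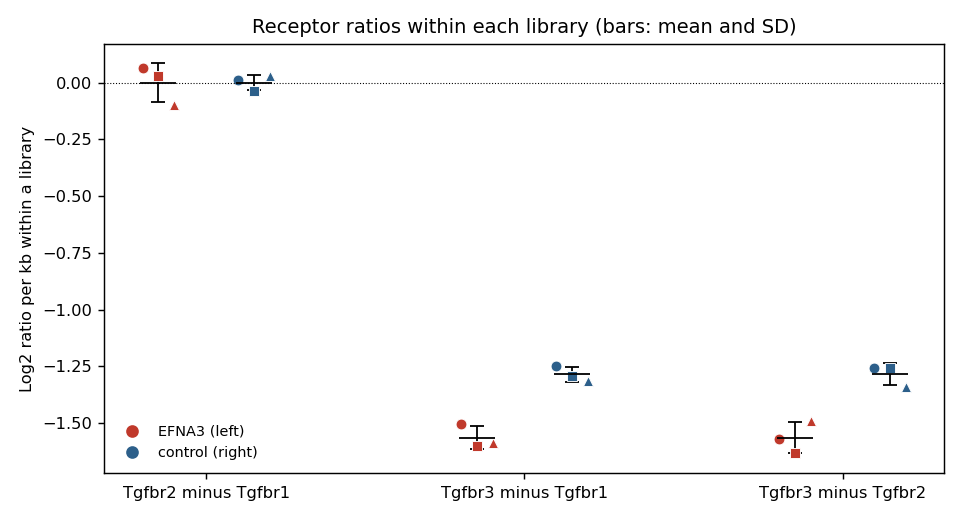
Log2 ratio of receptor levels per kilobase within each library (vertical axis) for 3 pairs of receptors, with EFNA3 libraries in red on the left and controls in blue on the right of each pair, and bars for mean and SD (circle, square and triangle are replicates 1, 2 and 3). Tgfbr2 over Tgfbr1 lies near 0 in both groups, while both ratios with Tgfbr3 are lower in all EFNA3 libraries than in any control.

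Stromal cells also make betaglycan, so fibroblast markers are given beside it. Of 9 fibroblast genes 8 were found in the deposited table, and Lum was absent from it. The log2 of their summed linear level ran from 10.86 to 10.99 in EFNA3 libraries and from 10.97 to 11.03 in controls. Most abundant of the 8 was Pdgfra, at means of 10.07 with EFNA3 and 10.29 in controls, so the sum follows it closely. Higher means with EFNA3 were found for 6, among them Col1a1 by 0.29 (SE 0.16). Of these 6, Col1a2, Col3a1, Pdgfrb and Thy1 were low, averaging 5.26, 4.56, 4.83 and 2.95 over all libraries. The median of a library was 8.10 and the filter 3.32. Fbln1, which encodes fibulin-1, and the receptor gene Pdgfra were lower without overlap, by -0.31 (SE 0.10) and -0.22 (SE 0.10). Leaving out EFNA3 replicate 1 gave -0.32 and -0.12, and the correction gave -0.31 and -0.06. None of the 8 passed the limma test across all genes. The summed level of 4 hormone-sensing luminal markers was lower without overlap, at 12.54 to 12.96 with EFNA3 and 12.998 to 13.11 in controls. Most abundant of the 4 was Prlr, at means of 12.22 and 12.53, and its longest transcript has 9900 nt. Prlr was lower without overlap, as were 7.45% of all tested genes. Its difference was -0.31 (SE 0.12), or -0.16 without EFNA3 replicate 1 and -0.10 corrected. Esr1, Pgr and Foxa1 overlapped, with differences of -0.19, -0.24 and -0.02. The sum of 7 basal markers stood at 16.85 to 16.94 and 16.75 to 16.85. That of 6 luminal markers stood at 16.23 to 16.46 and 16.15 to 16.24, with overlap. The median difference of the hormone-sensing markers was -0.21, but -0.06 without EFNA3 replicate 1 and -0.07 corrected. The part of these cells in the Tgfbr3 difference was not tested.

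Tgfbr1 and Tgfbr2 overlapped between groups. Tgfbr1 stood at 11.04, 11.34 and 11.31 in EFNA3 libraries and at 11.30, 11.34 and 11.27 in controls. Tgfbr2 stood at 11.59, 11.87 and 11.70 in EFNA3 libraries and at 11.81, 11.79 and 11.79 in controls. In both genes EFNA3 replicate 1 was the lowest of all libraries, and EFNA3 replicate 2 the highest. The differences were -0.07 (SE 0.09) and -0.07 (SE 0.08). Without EFNA3 replicate 1 they were 0.02 (SE 0.05) and -0.01 (SE 0.06). With the length and GC correction they were 0.05 (SE 0.05) and 0.11 (SE 0.07). Leaving out that library changed the sign for Tgfbr1 alone, and the correction changed it for both genes.

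**Figure D3:**
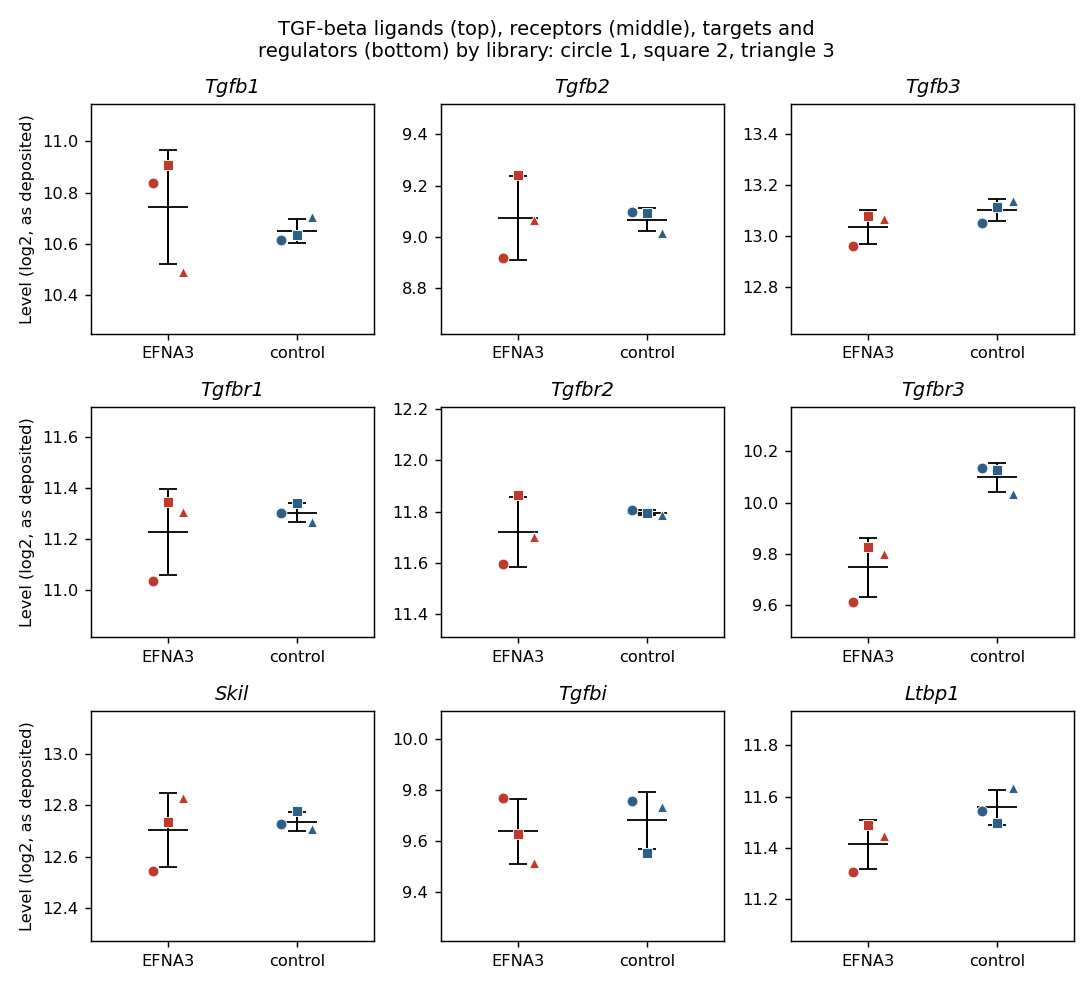
Deposited log2 level (vertical axis, same span of 0.9 in each panel) of the 9 members in the 3 EFNA3 libraries (red, left) and the 3 controls (blue, right), with bars for mean and SD. Only Tgfbr3 and, by a narrow margin, Ltbp1 show no overlap between the groups; in 7 of the 9 panels the red circle, EFNA3 replicate 1, is the lowest point.

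The ligands differed less between groups than between EFNA3 libraries. Tgfb1 stood at 10.84, 10.91 and 10.49 with EFNA3 and at 10.62, 10.63 and 10.70 in controls, so that EFNA3 libraries were both the highest and the lowest. Its difference was 0.09 (SE 0.11), and leaving out EFNA3 replicate 3 gave 0.22, leaving out EFNA3 replicate 2 gave 0.01. Without EFNA3 replicate 1 it was 0.05, and corrected for length and GC share 0.07 (SE 0.09). Tgfb2 stood at 8.92, 9.24 and 9.06 with EFNA3 and at 9.10, 9.09 and 9.01 in controls, a difference of 0.01 (SE 0.10). Here too EFNA3 libraries held both ends of the range. Leaving out EFNA3 replicate 1 gave 0.09, and the corrected difference was 0.11 (SE 0.08); after the correction every EFNA3 library exceeded every control, the nearest pair lying within 0.01. Tgfb3 stood at 12.96, 13.08 and 13.07 with EFNA3 and at 13.05, 13.11 and 13.14 in controls, a difference of -0.07 (SE 0.07). The Tgfb3 groups overlapped at EFNA3 replicates 2 and 3 and control replicate 1, and the difference was -0.03 without EFNA3 replicate 1 and -0.07 (SE 0.05) corrected. Centred on 10 housekeeping genes, which puts the median of all genes at -0.12, the differences of Tgfb1 and Tgfb2 change sign, to -0.03 and -0.11.

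Ltbp1 encodes a latent TGF-beta binding protein, which anchors the latent ligand in the matrix. It stood at 11.30, 11.489 and 11.45 with EFNA3, against 11.54, 11.497 and 11.63 in controls. The groups did not overlap, but the gap between EFNA3 replicate 2 and control replicate 2 was within 0.01. The difference was -0.14 (SE 0.08), or -0.09 (SE 0.06) without EFNA3 replicate 1. Its longest transcript has 6671 nt. Once length and GC share were taken out, the difference was 0.00 (SE 0.07) and the groups overlapped.

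Skil encodes SnoN, a repressor that binds the SMAD proteins and is itself induced by TGF-beta. It stood at 12.54, 12.73 and 12.83 with EFNA3 and at 12.73, 12.78 and 12.71 in controls, a difference of -0.03 (SE 0.08). Again EFNA3 libraries held both ends of the range. Without EFNA3 replicate 1 the difference was 0.05 (SE 0.05), and the corrected difference was 0.12 (SE 0.05), with every corrected EFNA3 value above every control. Tgfbi encodes an extracellular matrix protein that was named for its induction by TGF-beta. It stood at 9.77, 9.63 and 9.52 with EFNA3 and at 9.76, 9.55 and 9.73 in controls, a difference of -0.04 (SE 0.10). The Tgfbi groups overlapped, and leaving out EFNA3 replicate 1 gave -0.11, leaving out EFNA3 replicate 3 gave 0.02. The corrected difference was -0.06 (SE 0.08).

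**Figure D4:**
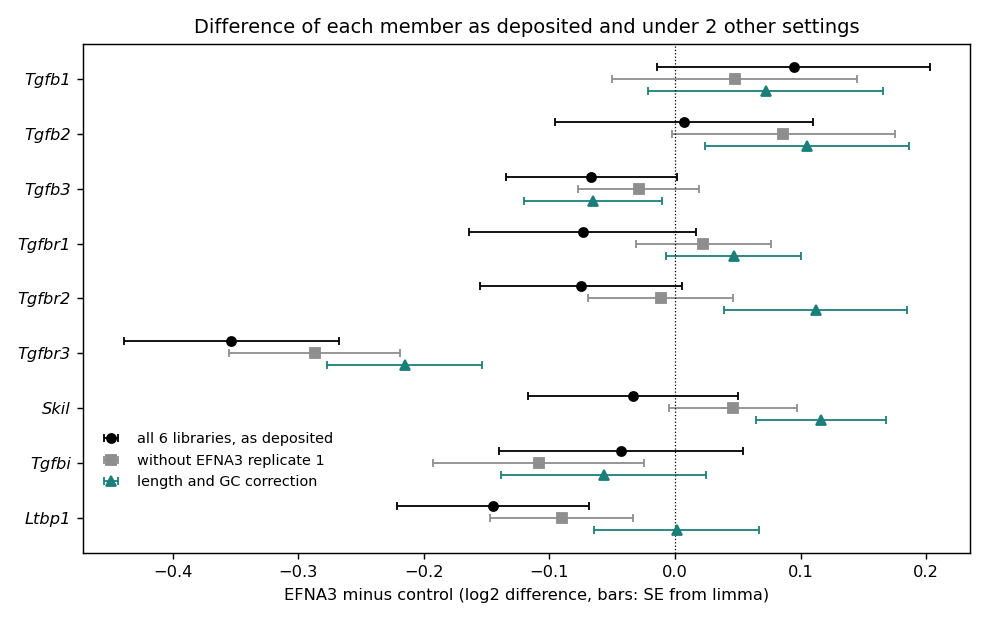
Log2 difference EFNA3 minus control (horizontal axis, bars are the SE from limma) of each member as deposited (black), without EFNA3 replicate 1 (grey) and with the length and GC correction (green). Tgfbr3 lies at -0.35, -0.29 and -0.22, while Tgfbr1, Tgfbr2, Skil and Ltbp1 move to or across 0.

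Of the 9 members 7 had lower means with EFNA3 and 2 higher, with a median difference of -0.07 against 0.00 over all 16394 tested genes. Without EFNA3 replicate 1, 5 were lower and the median was -0.01; with the length and GC correction 3 were lower and the median was 0.05, where that of all genes was 0.02. Centred on housekeeping genes 9 of 9 were lower, with a median of -0.19, where 11945 of 16394 tested genes were lower, with a median of -0.12. The groups did not overlap for Tgfbr3 and Ltbp1, both lower, where 7.45% of all tested genes were lower without overlap and 8.53% higher. After the correction Tgfbr3 was the 1 member lower without overlap, where 6.26% of genes were, and 2 members, Tgfb2 and Skil, were higher without overlap, where 8.87% were. By limma with Benjamini-Hochberg adjustment at 0.05 the fit called 0 of 16394 genes, 0%, and so no member; the smallest adjusted p over all genes was 0.55. At an unadjusted limma p under 0.05 stood 1104 genes, or 6.73%.

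**Figure D5:**
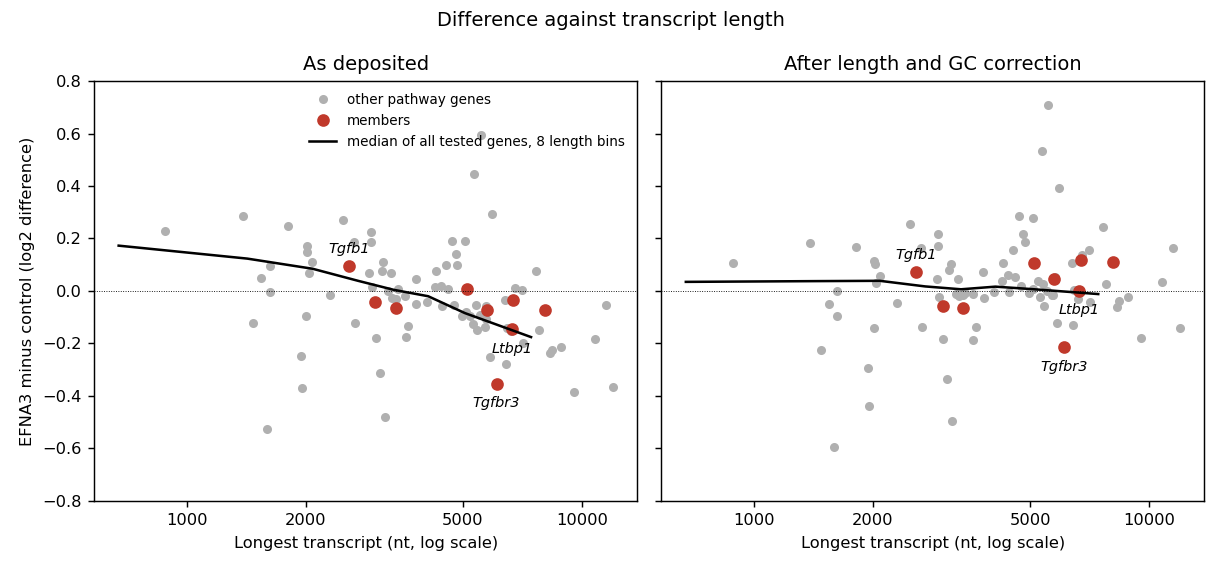
Log2 difference EFNA3 minus control (vertical axis) against the length of the longest transcript (log axis), as deposited (left) and after the length and GC correction (right), for the members (red), the other tested pathway genes (grey; Mmp9, at -1.31, lies outside the range) and the median of all tested genes in 8 length bins (black). The black line falls with length on the left, from 0.17 to -0.18, and is near 0 on the right, where Tgfbr3 still lies below it and Ltbp1 lies on it.

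Members varied together across the 6 libraries only in part. Of 36 pairs, 11 had a negative Pearson r and 0 had an r over 0.9. The highest were 0.90 for Tgfbr1 with Skil, 0.88 for Tgfb3 with Ltbp1 and 0.87 for Tgfbr2 with Tgfb2 and with Tgfbr1, and each of these genes had its lowest value in EFNA3 replicate 1. The lowest was -0.80 for Skil with Tgfbi. Among 11801 other genes of sufficient level, the patterns nearest to Tgfbr3 were those of the phosphofructokinase gene Pfkp (r = 0.985) and the cytochrome P450 gene Cyp2b19 (r = 0.984), which differed by -0.20 (SE 0.08) and -0.73 (SE 0.15). With Tgfb3 these were Prkcz2 and Rab11fip4 (r = 0.996 and 0.988), with Tgfb1 Tmem102 and Rpp38 (0.997 and 0.990), and with Tgfb2 Ust and Fem1b (0.990 and 0.972). Tgfbr1 was nearest to Zmym1 and Foxj2 (0.997 and 0.996), and 532 genes had an r over 0.95 with it, against 55 with Tgfbr3. Tgfbr2 was nearest to Lrrc58 and Rab22a (0.996 and 0.993) and Skil to Flrt2 and Fbxo30 (0.998 and 0.993). Tgfbi was nearest to Alkbh2 and Slc16a3 (0.983 and 0.982) and Ltbp1 to Tbc1d16 and Zxdc (0.987 and 0.983). With 6 libraries and this many genes, high values of r are common, and they are given as a description. Pfkp and Cyp2b19 were picked for their likeness to Tgfbr3 in these same libraries, so their differences are no separate result.

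Of the other genes of the pathway 83 were tested, and 0 passed limma over all genes in either direction. At an unadjusted limma p under 0.05 there were 3 higher and 2 lower, beside 6.73% of all tested genes; 6 were higher and 6 lower without overlap, beside 8.53% and 7.45%. The 3 higher were Ccn2, Cdkn2b and Fst and the 2 lower Mmp2 and Tgm2; Fst, Mmp2 and Tgm2 are named because of their values. Their median difference was -0.03, or 0.00 without EFNA3 replicate 1 and 0.01 with the length and GC correction.

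In the list for latency and activation, 20 genes were tested, 8 with higher and 12 with lower means with EFNA3 and a median of -0.05, and 0 were without overlap. Without EFNA3 replicate 1 and with the correction there were 10 higher and 10 lower each time, with medians of 0.01 and 0.01. Centred on housekeeping genes 2 were higher and 18 lower, with a median of -0.17, where 11945 of 16394 tested genes were lower, with a median of -0.12. The related genes Ltbp2 and Ltbp3 were more abundant per kilobase than Ltbp1, at 10.83 and 11.19 against 8.75. Binding of latent TGF-beta by their proteins was not measured. Ltbp2 and Ltbp3 differed by 0.01 (SE 0.11) and -0.11 (SE 0.08), or by 0.14 and -0.01 corrected. Ltbp4 differed by -0.05 (SE 0.10) and Lrrc32, which encodes the membrane anchor GARP for latent TGF-beta, by 0.01 (SE 0.08). The integrin subunits that release the ligand, Itgav, Itgb6 and Itgb8, differed by 0.00 (SE 0.07), 0.14 (SE 0.13) and -0.22 (SE 0.12). Of the partners of Itgav, Itgb1 stood at 12.52 per kilobase, Itgb5 at 10.45, Itgb3 at 10.08, Itgb8 at 9.64 and Itgb6 at 6.20. Without EFNA3 replicate 1 the Itgb8 difference was -0.08, and corrected it was -0.04. Thrombospondin-1, an activator of latent TGF-beta encoded by Thbs1, differed by -0.25 (SE 0.12), or -0.10 without EFNA3 replicate 1, and Furin, the protease that cuts the TGF-beta precursor, by -0.06 (SE 0.08).

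Among 9 tested SMAD genes and cofactors, 9 had lower means with EFNA3, with a median of -0.10, or -0.03 without EFNA3 replicate 1 and 0.00 with the length and GC correction. Their median transcript was 8089 nt. The signal transducers Smad2, Smad3 and Smad4 differed by -0.07 (SE 0.07), -0.08 (SE 0.08) and -0.03 (SE 0.07), or by 0.11, 0.01 and -0.02 corrected. The coactivator genes Ep300 and Crebbp were lower without overlap, as were 7.45% of all tested genes, and are named because of their values. They differed by -0.39 (SE 0.18) and -0.18 (SE 0.08), or by -0.14 and -0.11 without EFNA3 replicate 1 and by -0.18 and 0.03 corrected. After the correction 1 gene of the 9 was lower and 1 higher without overlap, beside 6.26% and 8.87% of all genes.

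Of 13 negative regulators 8 had higher means with EFNA3, with a median of 0.08, which was -0.05 when centred on housekeeping genes. Smad7, the feedback inhibitor of the receptor, stood at 9.46, 9.67 and 9.57 with EFNA3 and at 9.41, 9.58 and 9.49 in controls, a difference of 0.08 (SE 0.09) with overlap. Pmepa1, a TGF-beta-induced inhibitor of SMAD signalling, stood at 13.91, 13.94 and 13.86 with EFNA3 and at 13.83, 13.79 and 13.80 in controls. These groups did not overlap, with a difference of 0.10 (SE 0.07). The SMAD corepressor gene Tgif1 did not overlap either, at a difference of 0.11 (SE 0.07). Of the 13 genes 3 were higher and 1 lower without overlap, beside 8.53% and 7.45% of all tested genes. The corepressor gene Ski and the ubiquitin ligase gene Smurf2 differed by -0.09 (SE 0.09) and -0.13 (SE 0.09), or by 0.00 and -0.02 corrected. Centred on housekeeping genes, Smad7, Pmepa1 and Tgif1 change sign, to -0.05, -0.02 and -0.01. With the length and GC correction these 3 genes differed by 0.11, 0.15 and 0.10.

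Of 35 genes known to be induced by TGF-beta 32 were tested; the mesenchymal regulators Zeb1, Zeb2 and Twist1 were below the filter. With EFNA3 19 had higher and 13 lower means, with a median of 0.07, or -0.05 centred on housekeeping genes. Without overlap 4 were higher and 2 lower, beside 8.53% and 7.45% of all tested genes. Smad7, Pmepa1 and Tgif1 are also among the negative regulators above, and Pmepa1 and Tgif1 are 2 of these 4. The matricellular gene Ccn2 stood at 12.75, 12.39 and 12.51 with EFNA3, against 12.19, 12.30 and 12.34 in controls. Every EFNA3 library exceeded every control, by a mean of 0.27 (SE 0.10), or 0.17 without EFNA3 replicate 1 and 0.26 with the length and GC correction. The cell cycle inhibitor genes Cdkn2b and Cdkn1a differed by 0.28 (SE 0.11) and 0.11 (SE 0.09) with overlap, or by 0.18 and 0.06 corrected. Junb, an early target, differed by 0.25 (SE 0.12), or 0.14 without EFNA3 replicate 1 and 0.17 corrected, and the fibronectin gene Fn1 by -0.24 (SE 0.23), or 0.06 without EFNA3 replicate 1.

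The activin branch, which signals through the same SMAD2 and SMAD3, had 13 tested genes, 4 with higher and 9 with lower means and a median of -0.04. The activin subunit gene Inhbb was more abundant per kilobase than Tgfb3, at 11.89 against 11.31, and differed by 0.01 (SE 0.06), while Inhba stood at 6.82 per kilobase and differed by -0.03 (SE 0.19). The activin receptors Acvr1b and Acvr2a differed by -0.06 (SE 0.06) and -0.14 (SE 0.09), or by 0.00 and -0.01 corrected. Eng encodes endoglin, a co-receptor related to betaglycan and typical of endothelium. It stood at 5.72 to 6.18 with EFNA3 and at 5.56 to 6.25 in controls, a difference of 0.01 (SE 0.23).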

How the data were processed

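Trim Galore, Subread, featureCounts and the build mm39 are named, per the submitters' processing notes. Their versions, the annotation and the strandedness used in counting are not stated. The authors deposited log2 values, 1 column for each of 6 libraries. Base 2 was read from the values: on the linear scale every library then sums to 24692207. Sorted columns differ by at most 0.00302, so the values had been brought to a common distribution, which would hide a shift of all genes; depth is unknown. How reads became log2 values is not stated either.

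Genes were tested where at least 3 libraries reached 3.32 (10 on the linear scale), which left 16394. All were fitted together by limma (version 3.58.1, R 4.3.3), without pseudocount or block and with a mean-variance trend, two-sided, with Benjamini-Hochberg adjustment. It was tested on simulated data. With 3 libraries against 3, the smallest p of an exact permutation test is 0.1. Members, lists, tests and alternatives were chosen with earlier results of these data known. Named genes were the members, 28 pathway genes chosen for their place in the pathway (1 of them is not reported here), and the 2 genes nearest in pattern to each member with a mean of at least 5.64 and no predicted symbol; exceptions are marked. Transcript length and GC share are those of the longest transcript in GENCODE M21, an annotation of an earlier build, matched by symbol or synonym for 98.8% of tested genes. The length and GC correction removes from every library a smooth trend in both (splines, 5 degrees of freedom).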

Additional observations from a re-analysis of the deposited data

How the results depend on the processing

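Of 162 values for the 9 members under 18 alternatives, 141 moved by less than the spread between replicates and 22 changed sign. Many of the 141 could not move. The changes of filter, centring on library medians, leaving out the trend and the block by titles leave the deposited differences as they are. The pseudocount hardly alters them. The count is therefore no measure of how robust the differences are. None of the sign changes was in Tgfb3 or Tgfbr3. The Tgfbr3 difference ran from -0.48 centred on housekeeping genes to -0.22 with the length and GC correction. The median difference of the members was -0.19 centred on housekeeping genes, where all genes had -0.12. It was 0.047 with the length and GC correction, 0.048 with that and EFNA3 replicate 1 left out, 0.047 with that and a replicate block taken from the titles, and 0.002 with library weights. Leaving out 1 library at a time it ran from -0.09 to -0.01.

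No gene of the table was called under 17 alternatives, among them the replicate block taken from the titles, where the median of the members was -0.067. Under a replicate block taken from the sample descriptions 71 genes were called, none of them a member, with Tgfbr3 at -0.38; EFNA3 replicate 2 and control replicate 2 then stand alone and 1 residual degree of freedom is left. Same-numbered libraries did not deviate together, with correlations of -0.11, 0.03 and -0.32 by title, so the numbers were not taken as pairs. The number of genes at an unadjusted limma p under 0.05 ran from 512 without control replicate 2 to 2478 without EFNA3 replicate 3, against 1104 with all libraries. The cause of these moves was not tested.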

Other observations

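Periostin, encoded by Postn, is the closest relative of the Tgfbi protein and is likewise known as a TGF-beta-induced matrix protein. It was among the most abundant transcripts of these epithelial cultures. By level per kilobase Postn had rank 11 of 16197 tested genes with a length, and Tgfbi was higher than 59.5% of them. By library Postn was at 17.01, 17.49 and 17.49 with EFNA3 and at 17.49, 17.49 and 17.30 in controls (log2 as deposited), a difference of -0.10 (SE 0.15) with overlap. Several of these values are equal, since the deposited libraries share 1 distribution and Postn has the same rank in them; small differences at this level are hidden. The fibroblast collagens Col1a1 and Col3a1 stood far lower, at 8.07 to 8.28 and 4.09 to 5.50 with EFNA3 and at 7.59 to 8.22 and 3.83 to 4.88 in controls. Postn was singled out after its values were seen.

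Within the matrix group, the activator protease gene Mmp14 stood at 14.09 to 14.12 with EFNA3 and at 14.05 to 14.22 in controls, a difference of 0.00 (SE 0.07). Mmp2, which encodes a gelatinase, stood at 8.97, 9.35 and 8.95 with EFNA3 and at 9.38, 9.50 and 9.33 in controls. Its groups overlapped by EFNA3 replicate 2 alone, the difference was -0.31 (SE 0.12), and it was -0.34 with the length and GC correction. Fst, which encodes the activin antagonist follistatin, averaged 11.15 ± 0.06 with EFNA3 and 10.97 ± 0.03 in controls (SD, n = 3 each). Those groups did not overlap, at a difference of 0.19 (SE 0.07), or 0.17 with the correction. None of these passed limma over all genes.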
